A study of Mus musculus with 12 samples.

Results

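A set of 40 germline and meiosis genes was followed in RNA-seq of mouse embryonic stem cells (mESCs) with and without PROSER1. The genes were taken by symbol from a list of germ cell factors, piRNA pathway genes, meiotic chromosome genes and a few other genes used by germ cells. All 40 symbols were among the 35976 genes of the table. Of these 40, 36 averaged 10 or more normalised counts across the 12 libraries and were tested with the 15341 genes above that level, whereas Tdrd6, Tdrd9, Spo11 and Dpep3 lay below it and were not tested.

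Germ cells switch on a set of genes that other cells keep silent. They license the cells for meiosis, pair and recombine the chromosomes, and make piRNAs, small RNAs that guide PIWI proteins to transposon transcripts. In somatic cells many of these genes are held off by DNA methylation of their promoters, and in mESCs a variant Polycomb complex that holds E2F6, MGA with MAX, and PCGF6 also represses part of them. PROSER1 binds the TET enzymes, which oxidise methylated cytosine. The study of these cells reported lower DNA methylation over much of the genome in KO mESCs, including promoters outside CpG islands, and its return with re-expressed PROSER1. CpG islands were reported as unchanged, and sites that lost TET2 binding as more methylated. The link of methylation to the RNA levels below was not tested. The comparisons asked how the level of these genes differed between WT, PROSER1 KO and KO+Rescue cells, and how it moved when the cells left the stem cell state.

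Each of the 6 groups, 3 genotypes at 2 stages, held 2 libraries. The mESCs were grown without feeders on gelatin in serum with LIF and with CHIR99021 and PD0325901, inhibitors of GSK3 and MEK, and the day 2 cells had spent 48 hours in serum-free N2B27, for which no inhibitor is listed, so the stage comparisons also span that change of medium. All lines came from blastocysts of TET2 fl/fl animals, an allele that all groups therefore share. The KO line was a CRISPR clone edited in exon 1 of Proser1, so a difference of that clone from WT and the loss of PROSER1 cannot be told apart. KO+Rescue was the same line with an inserted FLAG-tagged Proser1 coding sequence, selected with blasticidin and cloned again. A difference between the KO and KO+Rescue lines and the re-expression of Proser1 likewise cannot be told apart. Library totals ran from 38634668 to 66450803 reads. The columns of KO and KO+Rescue cells are named by a line code, and their assignment is an inference described with the processing. Proser1 itself averaged 539 ± 52.4 in KO cells and 720 ± 239 in WT mESCs (SD, n = 2), and 2959 ± 185 in KO+Rescue, and an edit in exon 1 need not remove the RNA. A pair of values for a group gives library A and then library B, in normalised counts, and genes are said to rise or fall only where its adjusted p was under 0.05 (limma).

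The labelled cell types were checked against their markers. The 7 mESC markers, Pou5f1 and Nanog among them, summed to between 159729 and 220864 normalised counts in mESC libraries and to between 52625 and 91392 at day 2. The 6 neuroectoderm markers summed to between 278 and 369 in mESCs and to between 2134 and 4417 at day 2. Markers of several cell states also moved with the genotype at day 2. Of the 7 mESC markers Nanog rose and Esrrb fell in KO at day 2, when the list summed to 52625 and 70052 in WT, 91392 and 83743 in KO cells, and 75055 and 82990 in KO+Rescue. Of 6 formative and primed markers Sall2, Fgf5 and Otx2 rose, with sums of 74527 and 58359, 94151 and 96649, and 83636 and 83017 in the same order. Sox1 and Pax6 rose among 4 tested neuroectoderm markers (3867 and 2134, 4417 and 4324, and 3885 and 3975), Zscan4d among 3 tested of 7 2-cell-like markers (8.47 and 12.3, 39.9 and 46.4, and 18.8 and 47.9) and Gata4 among 2 tested of 4 primitive endoderm markers (57.5 and 37.7, 109 and 93.5, and 69.2 and 78.9). In KO mESCs Otx2 and Sox1 rose, as did Krt8 among 2 tested of 4 trophoblast markers. Of 7 tested fibroblast and feeder markers, Acta2 and Tagln rose and Thy1 fell in KO mESCs (list sums of 14090 and 12340 in WT against 17287 and 16489), and Acta2, Vim and Tagln rose at day 2 (5048 and 4838 against 10237 and 9209, with 8771 and 9273 in KO+Rescue). Of 7 primordial germ cell markers 1 fell and none rose in KO mESCs (Prdm1), and 3 fell and none rose at day 2 (Dppa3, Dnd1 and Tfap2c). That is 14.3% and 42.9% called, where 9.48% and 5.21% of all tested genes were. The mESC share rests on 1 gene and does not set these markers apart. The summed level of the 7 markers was 7099 and 7252 in WT, 8343 and 7971 in KO cells, and 6686 and 6985 in KO+Rescue mESCs. At day 2 it was 2398 and 2976 in WT against 1268 and 1247 in KO cells and 1261 and 1402 in KO+Rescue cells. No marker of these lists was at 0 in every library. In bulk RNA, fewer cells of a type and less RNA per cell cannot be told apart, and the part of these shifts in the germline values below was not tested.

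**Figure D1:**
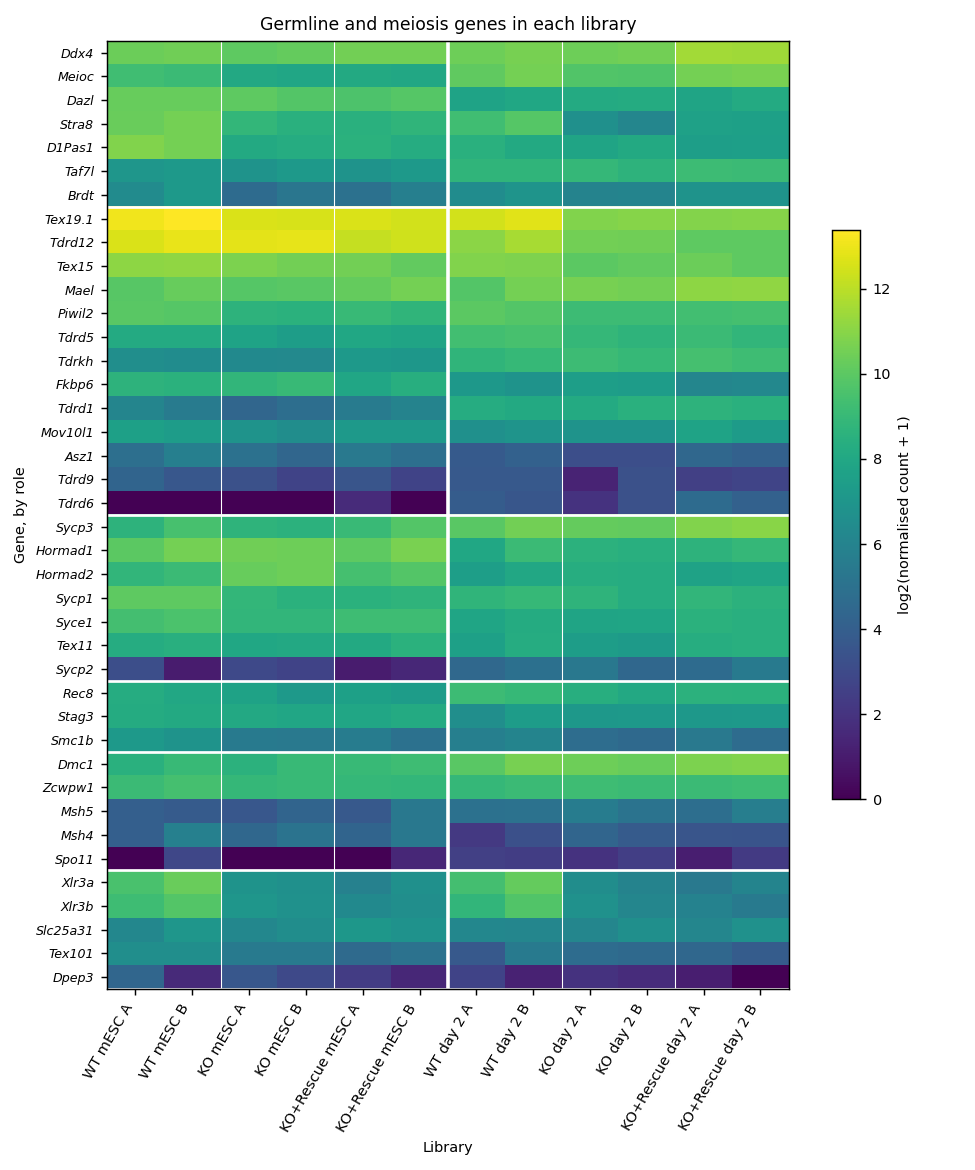
Level of each of the 40 genes (rows, grouped by role) in each of the 12 libraries (columns), on the scale log2(normalised count + 1), with darker colours for lower levels. Tex19.1 and Tdrd12 stand above the others in mESCs, and the Xlr3a and Xlr3b rows are bright in the 4 WT libraries and dark in the 8 others.

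The genes spanned a wide range of levels before any comparison. Per kb of the longest annotated transcript, Tex19.1 averaged 5454 normalised counts in WT mESCs and Tdrd12 averaged 1174, against 769 for Stra8, 625 for Mael and 517 for D1Pas1. At the other end Sycp2 averaged 0.813 per kb and Tdrd6 was at 0 in both WT libraries. The 40 genes together summed to 33865 and 39676 in WT mESCs, 26640 and 26757 in KO cells and 23837 and 25351 in KO+Rescue. At day 2 the sums were 23038 and 29536 in WT, 17095 and 16675 in KO cells and 21522 and 21635 in KO+Rescue. WT was the highest genotype in both libraries at each stage, and Tex19.1 and Tdrd12 made up much of the sums.

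In mESCs of the KO line, germline genes were lower than in WT more often than higher. Of the 36 tested, 14 fell and 1 rose, which is 41.7% called, where 9.48% of all tested genes were called, 6.26% as lower and 3.23% as higher. The median difference between KO and WT was -0.44 on the log2 scale for the 36 genes and -0.04 for all tested genes. At day 2, 9 fell and none rose, or 25%, against 5.21% of all tested genes, 3.64% lower and 1.57% higher, while the median of the 36 was -0.05 beside 0.02 for all. In all, 7 genes fell at both stages: Stra8, Meioc, Piwil2, Tex19.1, Rec8, Xlr3a and Xlr3b. Xlr3a and Xlr3b may share reads, and the share of all tested genes lower at both stages was not counted. Brdt, D1Pas1, Tdrd1, Mov10l1, Sycp1, Syce1 and Smc1b fell only among the mESC tests, and Tdrd12 and Tex15 only among the day 2 tests. Scaling the libraries to equal totals moved the median of all genes to -0.25 in mESCs and turned the split of all called genes from 495 higher and 960 lower to 235 and 1373. The germline genes then counted 1 higher and 16 lower. At day 2 the same scaling turned 241 and 558 into 132 and 566, and gave 0 higher and 8 lower germline genes. The counts that follow, from fits of fewer libraries, have no count of all genes beside them. They therefore measure no smaller germline effect. The day 2 count of 9 was 4 without either KO day 2 library and 5 in a fit of the KO and WT day 2 libraries alone, and the mESC count of 15 was 8 in a fit of the KO and WT mESC libraries alone.

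**Figure D2:**
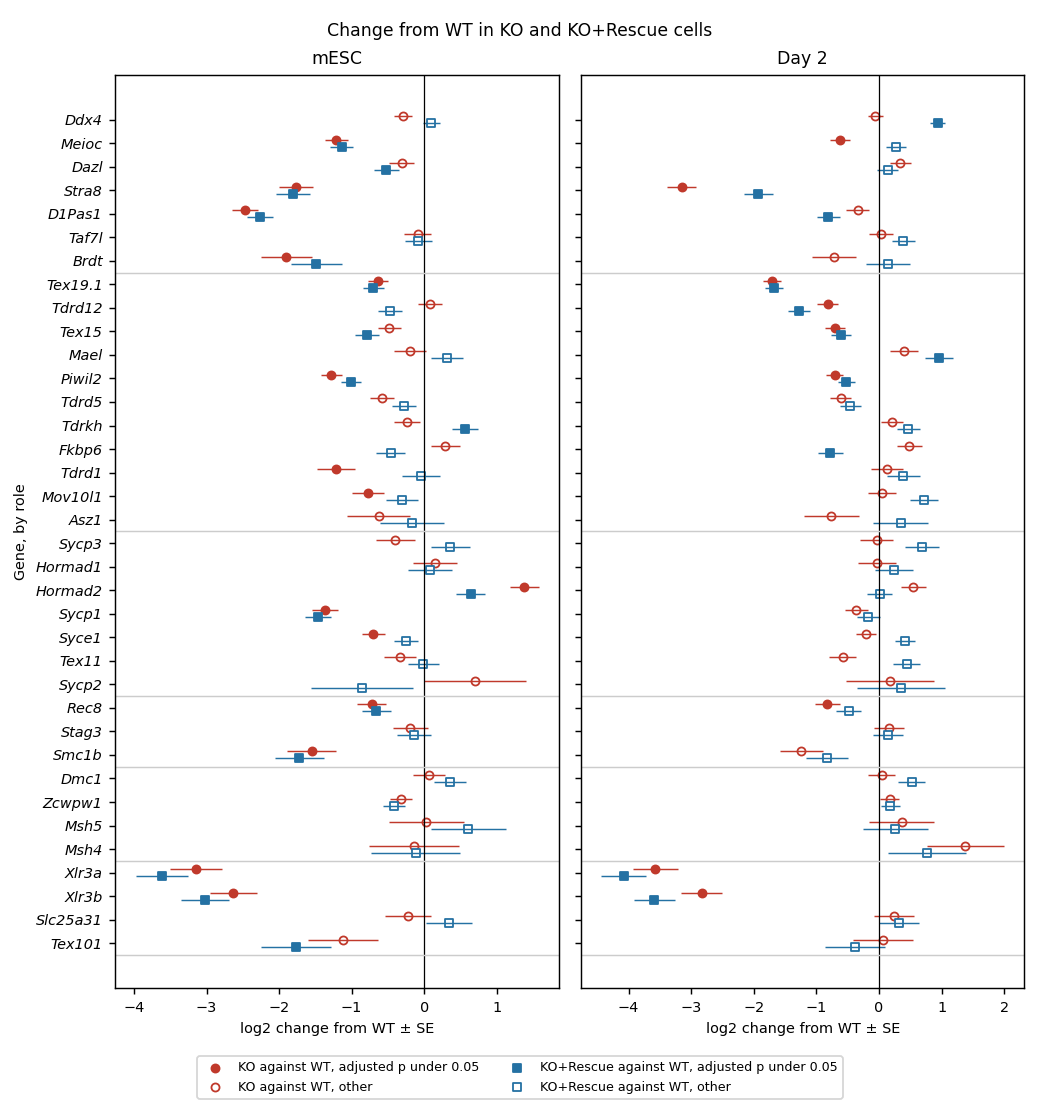
Fitted log2 difference from WT (horizontal axis, with SE) for the 36 tested genes in KO (circles) and KO+Rescue (squares), in mESCs on the left and at day 2 on the right, with filled marks for adjusted p under 0.05. In mESCs the filled KO circles lie to the left of 0 for 14 genes and to the right for Hormad2, and the KO+Rescue squares of D1Pas1, Stra8, Sycp1 and Xlr3a lie on the same side at -2.27, -1.81, -1.46 and -3.62.

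The stretches upstream of some of these genes are shown, since E2F and E-box sites are the letters by which the Polycomb complex named above is known to find germline promoters. The 250 bases before a RefSeq start (GRCm38.p6) were found for 35 of the 40 genes and searched on both strands for GCGGGA, the E2F site, and CACGTG, the E-box, which is the same on both strands. The E2F site was in 12 of the 35 windows (34.3%), against 18.8% of all 27025 genes and 33.6% of the 11400 tested genes with a window. The E-box was in 13 (37.1%), against 6.86% and 9.82%. Windows with both sites belonged to Ddx4, Mael, Sycp3 and Hormad1, which is 11.4% of the 35 beside 1.98% of all and 3.81% of tested genes. Of the 14 windows of genes that fell in KO at either stage 0 held both, and of the 19 of other tested germline genes 4 did. The E2F site was in 5 (35.7%) of the 14 and 7 (36.8%) of the 19, and the E-box in 4 (28.6%) and 8 (42.1%). Such counts are too small to set the genes that fell apart from the others. These are matches of letters and say nothing of whether a factor was bound.

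The sequences run 5′ to 3′ on the strand of the gene, with capitals for GCGGGA, its reverse complement TCCCGC, and CACGTG. Ddx4 and Sycp3 stand for the genes with both sites.
Ddx4 (chr13:112652311-112652560, minus strand): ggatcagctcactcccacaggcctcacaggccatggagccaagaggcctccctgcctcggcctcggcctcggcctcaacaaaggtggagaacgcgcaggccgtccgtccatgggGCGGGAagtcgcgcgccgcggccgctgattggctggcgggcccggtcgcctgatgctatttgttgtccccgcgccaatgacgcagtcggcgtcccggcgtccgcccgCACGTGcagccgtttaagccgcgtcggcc
Sycp3 (chr10:88459337-88459586, plus strand): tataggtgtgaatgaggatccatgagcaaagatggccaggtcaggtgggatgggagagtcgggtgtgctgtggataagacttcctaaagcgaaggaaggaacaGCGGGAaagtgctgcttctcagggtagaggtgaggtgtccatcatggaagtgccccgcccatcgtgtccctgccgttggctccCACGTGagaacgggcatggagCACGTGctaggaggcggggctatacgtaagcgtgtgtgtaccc
Of the 7 genes that fell in KO at both stages, Tex19.1, Meioc and Rec8 held the E2F site alone, Stra8, Xlr3a and Xlr3b held neither, and Piwil2 had no window. D1Pas1, which fell in mESCs, held the E2F site alone. The windows of D1Pas1, Tex19.1, Stra8, Xlr3a and Xlr3b follow. For Ddx4, Stra8 and Xlr3b the annotated gene reaches further upstream, so these windows lie wholly or partly within it.
D1Pas1 (chr1:186967166-186967415, plus strand): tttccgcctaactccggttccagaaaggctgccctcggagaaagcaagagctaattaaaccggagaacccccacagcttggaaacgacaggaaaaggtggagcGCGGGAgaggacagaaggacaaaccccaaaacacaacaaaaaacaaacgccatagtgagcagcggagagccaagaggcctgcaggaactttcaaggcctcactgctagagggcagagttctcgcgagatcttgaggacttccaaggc
Tex19.1 (chr11:121145893-121146142, plus strand): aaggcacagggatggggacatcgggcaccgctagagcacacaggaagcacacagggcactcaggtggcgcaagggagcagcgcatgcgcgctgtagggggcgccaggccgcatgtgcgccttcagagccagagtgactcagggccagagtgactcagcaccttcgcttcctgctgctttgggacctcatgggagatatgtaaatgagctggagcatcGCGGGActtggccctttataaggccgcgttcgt
Stra8 (chr6:34920698-34920947, plus strand): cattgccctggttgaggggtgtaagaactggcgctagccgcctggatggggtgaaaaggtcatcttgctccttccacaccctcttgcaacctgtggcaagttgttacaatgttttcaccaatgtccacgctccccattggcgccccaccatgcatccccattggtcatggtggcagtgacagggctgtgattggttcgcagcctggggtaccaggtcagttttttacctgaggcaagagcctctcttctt
Xlr3a (chrX:73097096-73097345, minus strand): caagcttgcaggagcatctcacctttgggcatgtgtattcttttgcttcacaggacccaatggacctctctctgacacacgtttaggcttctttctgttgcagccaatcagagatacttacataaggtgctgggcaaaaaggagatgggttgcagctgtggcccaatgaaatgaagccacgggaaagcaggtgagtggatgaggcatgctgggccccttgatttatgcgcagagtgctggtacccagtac
Xlr3b (chrX:73191929-73192178, plus strand): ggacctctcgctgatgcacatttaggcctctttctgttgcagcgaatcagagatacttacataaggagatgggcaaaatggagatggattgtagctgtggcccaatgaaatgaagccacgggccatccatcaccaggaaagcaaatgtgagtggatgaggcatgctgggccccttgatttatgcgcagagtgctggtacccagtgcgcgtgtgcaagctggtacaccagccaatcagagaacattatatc
The Xlr3a and Xlr3b windows aligned over 204 columns with 85.8% identical, and shared a run of 58 bases.

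Among the germ cell factors, 4 of 7 fell in KO mESCs (D1Pas1, Stra8, Meioc and Brdt) and 2 of 7 at day 2 (Stra8 and Meioc), and none rose. Stra8 (chromosome 6, 34920163 to 34939344 in GRCm38), which retinoic acid induces and which drives the entry into meiosis, had 1257 and 1517 in WT mESCs, 464 and 353 in KO cells and 364 and 424 in KO+Rescue. The day 2 libraries had 623 and 910 in WT, 103 and 68.8 in KO cells and 201 and 194 in KO+Rescue. No KO or KO+Rescue library reached the level of a WT library at either stage, and at day 2 KO+Rescue lay between the others without overlap. Stra8 was 3.40-fold lower in KO than WT mESCs (log2 -1.77 ± 0.23 SE, adjusted p = 0.000664) and 8.86-fold lower at day 2 (-3.15 ± 0.23, adjusted p = 4.77e-06). The difference between these 2 changes was -1.38 ± 0.33, which did not pass with limma (adjusted p = 0.0707) and did with edgeR and DESeq2 (adjusted p = 0.0479 and 0.00371).

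D1Pas1 (chromosome 1, 186967416 to 186970627), an intronless DEAD-box helicase gene of the testis, had 1800 and 1520 in WT mESCs but 281 and 314 in KO cells and 373 and 315 in KO+Rescue. At day 2 it had 364 and 280 in WT, 227 and 279 in KO cells and 178 and 185 in KO+Rescue. The WT mESC libraries thus stood apart from all others, of which the highest was at 373. It was 5.55-fold lower in KO mESCs (log2 -2.47 ± 0.18, adjusted p = 9.49e-06) and 1.27-fold lower at day 2, which did not pass (-0.34 ± 0.18, adjusted p = 0.354). The change in KO differed between the stages by 2.13 ± 0.26 (adjusted p = 0.00186), 1 of 2 germline genes for which this interaction passed, against 1.13% of all tested genes, 0.502% with a positive and 0.626% with a negative difference. D1Pas1 is a close copy of Ddx3x, whose reads may be shared with it, and Ddx3x averaged 24001 ± 3685 in WT and 17498 ± 1591 in KO mESCs (adjusted p = 0.1). At day 2 Ddx3x averaged 26409 ± 4056 in WT and 24894 ± 1377 in KO (adjusted p = 0.858). The part of Ddx3x reads in the D1Pas1 values at either stage was not tested.

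Meioc (chromosome 11, 102665351 to 102682240), whose protein keeps cells in meiotic prophase, had 618 and 560 in WT mESCs, 264 and 244 in KO cells and 276 and 258 in KO+Rescue. After N2B27 it had 1090 and 1552 in WT, 856 and 840 in KO cells and 1516 and 1614 in KO+Rescue. In mESCs KO and KO+Rescue lay together below WT, while at day 2 only KO was below it and KO+Rescue overlapped WT. It was 2.31-fold lower in KO mESCs (log2 -1.21 ± 0.16, adjusted p = 0.000866) and 1.53-fold lower at day 2 (-0.62 ± 0.16, adjusted p = 0.0476), a call that was lost without any KO or KO+Rescue library (adjusted p from 0.0593 to 0.271) or WT day 2 replicate B (-0.36, adjusted p = 0.222). Brdt, a bromodomain protein of spermatogenic cells, had 87.7 and 151 in WT mESCs against 24.7 and 36.4 in KO cells and 30.3 and 53.4 in KO+Rescue. It was 3.74-fold lower in KO mESCs (log2 -1.90 ± 0.35, adjusted p = 0.00546). Its day 2 values were 89.6 and 120 in WT, 61.3 and 63.6 in KO cells and 115 and 116 in KO+Rescue, and its difference between KO and WT did not pass (-0.72 ± 0.35, adjusted p = 0.295).

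Ddx4 (chromosome 13, 112598333 to 112652633), the VASA helicase of germ cell granules, had the highest mean of the germ cell factors. It had 1300 and 1447 in WT mESCs, 1063 and 1180 in KO cells and 1476 and 1466 in KO+Rescue, and 1388 and 1609, 1387 and 1489, and 2927 and 2790 in the same order at day 2. The KO+Rescue day 2 libraries held the highest level of all 12 libraries. Neither KO difference passed (log2 -0.29 ± 0.12 in mESCs, adjusted p = 0.145, and -0.06 ± 0.12 at day 2, adjusted p = 0.864). Dazl, an RNA-binding protein that licenses germ cells for meiosis, and Taf7l, a germ cell relative of a general transcription factor subunit, differed from WT in KO by log2 -0.31 to 0.34 with adjusted p from 0.228 to 0.948.

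**Figure D3:**
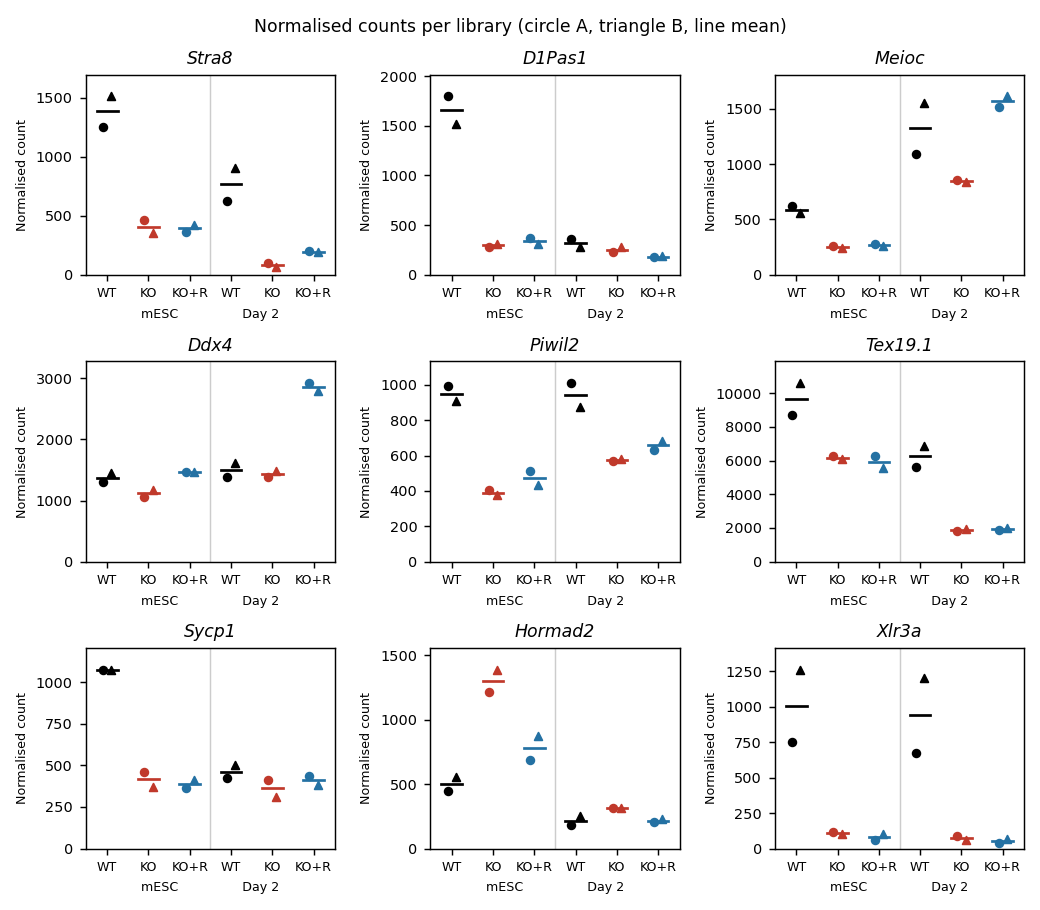
Normalised counts (vertical axes, linear from 0) of 9 of the genes in each library, with circles for library A, triangles for library B and bars for group means. Stra8, Piwil2, Tex19.1 and Xlr3a lie below WT in KO and KO+Rescue at both stages, D1Pas1 and Sycp1 stand apart in WT mESCs, Hormad2 is highest in KO mESCs and Ddx4 in KO+Rescue cells at day 2.

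Of the 13 piRNA pathway genes 11 were tested, and 4 fell in KO mESCs (Piwil2, Tex19.1, Tdrd1 and Mov10l1) and 4 at day 2 (Tex19.1, Piwil2, Tdrd12 and Tex15), with none higher. Piwil2 (chromosome 14, 70372477 to 70436898), the PIWI protein also known as MILI, had 991 and 909 in WT mESCs, 403 and 376 in KO cells and 513 and 433 in KO+Rescue. At day 2 the counts were 1011 and 872 in WT, 569 and 578 in KO cells and 630 and 685 in KO+Rescue. WT libraries were the highest at both stages, KO the lowest, and no genotypes overlapped. Piwil2 was 2.43-fold lower in KO mESCs (log2 -1.28 ± 0.14, adjusted p = 0.000266) and 1.64-fold lower at day 2 (-0.71 ± 0.14, adjusted p = 0.0122). The day 2 call was lost without WT day 2 replicate A or either KO day 2 library (adjusted p from 0.077 to 0.102).

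Tex19.1 (chromosome 11, 121146143 to 121148314), which restrains retrotransposons in germ cells and placenta, had 8727 and 10613 in WT mESCs, 6253 and 6109 in KO cells and 6290 and 5576 in KO+Rescue. The day 2 cells had 5615 and 6887 in WT, 1837 and 1955 in KO cells and 1904 and 1975 in KO+Rescue. KO and KO+Rescue overlapped each other and lay below WT at both stages. It was 1.56-fold lower in KO mESCs (log2 -0.64 ± 0.14, adjusted p = 0.0127) and 3.28-fold lower at day 2 (-1.71 ± 0.14, adjusted p = 9.27e-06), and the mESC call was lost without either KO mESC library (adjusted p = 0.0632 and 0.105). The day 2 change lay below the mESC change (interaction -1.07 ± 0.19, adjusted p = 0.0175), a call lost with equal library totals (-0.97, adjusted p = 0.0672), in the fit of the groups compared alone, and without WT mESC replicate A or any single KO library. Its neighbour and close copy Tex19.2 averaged 329 ± 87.4 in WT and 93.6 ± 13.9 in KO at day 2 (log2 -1.78 ± 0.25, adjusted p = 0.00103), so reads of either gene may be shared. Tex19.1, Meioc and Hormad2 lie on chromosome 11, whose 1199 tested genes had a median difference of -0.27 in mESCs and -0.17 at day 2. The part of this chromosome-wide shift in their values was not tested.

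Tdrd12, a Tudor protein and helicase needed to make piRNAs, had 6323 and 7769 in WT mESCs, 7165 and 7621 in KO cells and 4727 and 5425 in KO+Rescue. The day 2 libraries had 2116 and 3101 in WT, 1477 and 1433 in KO cells and 1049 and 1055 in KO+Rescue. KO overlapped WT in mESCs (log2 0.08 ± 0.17, adjusted p = 0.78) and lay below it at day 2, where it was 1.76-fold lower (-0.82 ± 0.17, adjusted p = 0.0124). Tex15, which takes part in piRNA-directed DNA methylation, had 2224 and 2250 in WT, 1726 and 1484 in KO cells and 1472 and 1142 in KO+Rescue mESCs. At day 2 it had 1827 and 1771 in WT, 1034 and 1161 in KO cells and 1333 and 1048 in KO+Rescue. All WT libraries were above all others at the same stage, but the KO difference passed only at day 2 (log2 -0.71 ± 0.16, adjusted p = 0.0181) and not in mESCs (-0.48 ± 0.16, adjusted p = 0.0685, DESeq2 0.0454). Both day 2 calls were lost without either KO day 2 library (adjusted p from 0.0838 to 0.169), that of Tdrd12 also without WT day 2 replicate B (log2 -0.54, adjusted p = 0.0623) and that of Tex15 without WT day 2 replicate A (adjusted p = 0.0624).

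Tdrd1, a scaffold that binds PIWI proteins, had 67.6 and 45.8 in WT mESCs, 20.2 and 27 in KO cells and 47.1 and 62.3 in KO+Rescue, so that KO was low and KO+Rescue overlapped WT. It was 2.33-fold lower in KO mESCs (log2 -1.22 ± 0.26, adjusted p = 0.0131), a call lost without WT or KO mESC replicate A (adjusted p = 0.117 and 0.0856). After N2B27 it had 314 and 273 in WT, 289 and 358 in KO cells and 405 and 363 in KO+Rescue. Fkbp6, a co-chaperone of PIWI loading, had 397 and 378 in WT mESCs, 441 and 507 in KO cells and 242 and 329 in KO+Rescue. Its day 2 values were 138 and 114 in WT, 182 and 169 in KO cells and 69.2 and 76.1 in KO+Rescue, the order KO, WT and KO+Rescue from high to low at both stages. Its differences between KO and WT did not pass (log2 0.29 and 0.48, adjusted p = 0.344 and 0.215). Mov10l1, the helicase that hands precursor RNAs to the pathway, was 1.70-fold lower in KO mESCs (180 ± 14 against 105 ± 15.6, SD, n = 2; adjusted p = 0.044, and from 0.0503 to 0.303 without any KO or KO+Rescue library or WT mESC replicate A) and at 112 ± 12.3 and 115 ± 1.58 in WT and KO at day 2. Mael, Tdrkh, Tdrd5 and Asz1 passed in neither KO comparison, of which Tdrd5 came closest (log2 -0.58, adjusted p = 0.0519 in mESCs and -0.61, 0.0619 at day 2) and was called at day 2 by edgeR and DESeq2 (adjusted p = 0.0494 and 0.013) and in mESCs by DESeq2 (adjusted p = 0.038). Tdrd6 and Tdrd9, below the filter, had group means from 0 to 20.8.

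Of the 7 synaptonemal complex and chromosome axis genes, 2 fell (Sycp1 and Syce1) and 1 rose (Hormad2) in KO mESCs, and none was called at day 2. Sycp1 (chromosome 3, 102818499 to 102936100), the transverse filament of the complex, had 1073 and 1075 in WT mESCs, 461 and 372 in KO cells and 365 and 415 in KO+Rescue. At day 2 the counts were 423 and 501, 415 and 310, and 439 and 381 in the same order. Only the WT mESC libraries stood apart. Sycp1 was 2.59-fold lower in KO mESCs (log2 -1.37 ± 0.18, adjusted p = 0.000676), and its change at day 2 was -0.36 ± 0.18 (adjusted p = 0.319). The difference between the stages did not pass with limma or edgeR (adjusted p = 0.0896 and 0.0547) and passed with DESeq2 (adjusted p = 0.0144).

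Hormad2 (chromosome 11, 4345801 to 4441198), an axis protein of unpaired meiotic chromosomes, was the only one of the 36 genes that rose in KO. It had 449 and 554 in WT mESCs, 1213 and 1388 in KO cells and 688 and 874 in KO+Rescue, with no overlap between genotypes. The day 2 cells had 179 and 256 in WT, 316 and 311 in KO cells and 204 and 228 in KO+Rescue, with KO again above the others. Hormad2 was 2.60-fold higher in KO mESCs (log2 1.38 ± 0.20, adjusted p = 0.00116) and 1.46-fold higher at day 2, which did not pass (0.55 ± 0.20, adjusted p = 0.146). Syce1, of the central element, had 660 and 776 in WT mESCs, 443 and 441 in KO cells and 599 and 602 in KO+Rescue, and 234 and 304, 226 and 235, and 366 and 349 at day 2. It was 1.62-fold lower in KO mESCs (log2 -0.70 ± 0.16, adjusted p = 0.0193), a call that was lost without either KO mESC library (adjusted p = 0.0856 and 0.129).

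Sycp3, of the lateral element, had the highest mean of these genes, with 397 and 706 in WT mESCs, 418 and 384 in KO cells and 530 and 874 in KO+Rescue, and 976 and 1476, 1203 and 1125, and 1850 and 2034 at day 2. WT and KO overlapped at both stages (adjusted p = 0.339 and 0.952). Sycp3 overlaps Chpt1, and whether strand was used in counting is not stated. Tex11, an X-linked crossover factor, had 306 and 348 in WT mESCs, 251 and 267 in KO cells and 280 and 374 in KO+Rescue. The day 2 libraries had 196 and 306 in WT, 171 and 155 in KO cells and 320 and 346 in KO+Rescue, so that KO was the lowest genotype at both stages, without passing against WT (adjusted p = 0.324 and 0.17). Hormad1 and the sparsely read Sycp2, with group means from 1.41 to 33.9, had adjusted p from 0.513 to 0.976.

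Of the 3 meiotic cohesin genes, Smc1b and Rec8 fell in KO mESCs and Rec8 at day 2. Rec8, the cleavable subunit that holds sister chromatids together, had 308 and 259 in WT mESCs, 204 and 144 in KO cells and 191 and 166 in KO+Rescue. At day 2 it had 577 and 496 in WT, 335 and 269 in KO cells and 387 and 378 in KO+Rescue. WT lay above the other genotypes at both stages. Rec8 was 1.64-fold lower in KO mESCs (log2 -0.72 ± 0.20, adjusted p = 0.0438) and 1.78-fold lower at day 2 (-0.83 ± 0.20, adjusted p = 0.0331), both close to the threshold. Without KO mESC replicate B the mESC change was -0.47 (adjusted p = 0.368), and that call was also lost without WT mESC replicate A or any KO or KO+Rescue day 2 library (adjusted p from 0.0625 to 0.247). The day 2 call was lost without WT day 2 replicate A or any KO or KO+Rescue day 2 library (adjusted p from 0.0567 to 0.304). Smc1b, the ring subunit, had 142 and 116 in WT mESCs, 44.8 and 41.8 in KO cells and 48.1 and 30.3 in KO+Rescue, and 54.5 and 63.8, 26.6 and 22.4, and 42.2 and 25.4 at day 2. It was 2.92-fold lower in KO mESCs (log2 -1.55 ± 0.34, adjusted p = 0.0148) and its day 2 change was -1.24 ± 0.34 (adjusted p = 0.0547), called by edgeR and DESeq2 (adjusted p = 0.041 and 0.0118). Its mESC call was lost without WT mESC replicate A or either KO mESC library (adjusted p from 0.0596 to 0.116). Smc1b overlaps the more abundant Fam118a. The third, Stag3, differed by -0.19 and 0.16 (adjusted p = 0.605 and 0.779).

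None of the 4 tested recombination genes was called in KO against WT. Dmc1, the meiotic strand exchange recombinase, had 358 and 518 in WT mESCs, 388 and 518 in KO cells and 512 and 595 in KO+Rescue, and 999 and 1559, 1348 and 1225, and 1732 and 1859 at day 2. The WT and KO ranges overlapped at both stages (log2 0.06 ± 0.22 and 0.04 ± 0.22, adjusted p = 0.883 and 0.947). Msh4 and Msh5, which stabilise crossover intermediates, had group means from 6.16 to 41.2 and SE of 0.52 to 0.62, too wide to show differences of the size seen in most other genes. Zcwpw1, a histone mark reader at recombination sites, stayed between 468 and 700 in every library. Spo11, which makes the meiotic breaks, reached at most 6.11 in any library.

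Xlr3a fell the most of the 36 genes at both stages. Its X-linked neighbour Xlr3b, of the same family used in germ cells, came next in mESCs, and at day 2 it came after Stra8. Xlr3a (chromosome X, 73086293 to 73097095) had 748 and 1260 in WT mESCs, 114 and 103 in KO cells and 58.6 and 103 in KO+Rescue. After N2B27 it had 676 and 1201 in WT, 91.6 and 61.4 in KO cells and 42.2 and 64.8 in KO+Rescue. Xlr3b (73192150 to 73202930) had 588 and 901, 128 and 107, and 81.6 and 96.2 in mESCs and 446 and 854, 106 and 69.6, and 59.8 and 42.3 at day 2. Every WT library lay above every KO and KO+Rescue library for each gene, and library B was above library A in WT at both stages. Xlr3a was 8.90-fold lower in KO mESCs (log2 -3.15 ± 0.36, adjusted p = 0.000284) and 11.9-fold lower at day 2 (-3.57 ± 0.36, adjusted p = 7.34e-05), and Xlr3b 6.19-fold and 7.10-fold (adjusted p = 0.000481 and 0.00024). These genes may share reads with each other and with Xlr3c, which averaged 230 ± 16.3 in WT and 47.1 ± 0.107 in KO mESCs (adjusted p = 0.0158), so the pair is better read as one. The 542 tested X-linked genes had a median of 0.07 in mESCs and 0.09 at day 2. Without the 4 X-linked members, 12 of 32 genes fell in KO mESCs and 7 at day 2. Tex101, a surface protein of germ cells, and Slc25a31, an ADP/ATP carrier of germ cells, did not pass (adjusted p from 0.146 to 0.96), and Dpep3, below the filter, had group means up to 11.1.

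In mESCs, 2 of the 36 genes were higher in KO+Rescue than KO and none lower, or 5.56% called. Of all tested genes 1.51% were called, 0.476% higher and 1.04% lower. Tdrkh, a Tudor protein that tethers piRNA trimming to mitochondria, had 79.6 and 78.2 in KO cells and 144 and 132 in KO+Rescue mESCs (1.74-fold, log2 0.80 ± 0.18, adjusted p = 0.0406), above WT at 97.2 and 89.5. Tdrd1 was 2.27-fold higher (log2 1.18 ± 0.26, adjusted p = 0.0426), to a level not called against WT (log2 -0.04 ± 0.26, adjusted p = 0.934). Neither call held without any KO or KO+Rescue library of either stage. Neither was made by edgeR (adjusted p = 0.088 and 0.11), and with equal library totals 0 of the 36 were higher and 2 lower, while the split of all genes went from 73 higher and 159 lower to 23 and 142. Against WT, 14 of the 36 were lower and 2 higher in KO+Rescue than WT mESCs, where 18.2% of all tested genes were called, 9.04% lower and 9.15% higher. Equal library totals turned the split of all genes from 1403 higher and 1387 lower to 672 and 3891, and that of the germline genes to 0 and 18. Counts from fits of fewer libraries, given next, lack a count of all genes and measure no smaller germline effect. The count of 16 was 8 without KO+Rescue mESC replicate B and 9 without WT mESC replicate A or in a fit of these 2 groups alone. The KO and KO+Rescue comparisons share their WT libraries, so their values are given side by side. D1Pas1 lay -2.47 from WT in KO and -2.27 in KO+Rescue mESCs on the log2 scale (SE 0.18), Stra8 lay at -1.77 and -1.81 (SE 0.23), and Sycp1 at -1.37 and -1.46 (SE 0.18). Piwil2 was at -1.28 and -1.01 (SE 0.14), Meioc at -1.21 and -1.14 (SE 0.16) and Xlr3a at -3.15 and -3.62 (SE 0.36). Each of these 6 genes was called in both comparisons. Of the 14 genes lower in KO mESCs, 11 were also called lower in KO+Rescue than WT. The others were Tdrd1, Syce1 (log2 -0.25 ± 0.16, adjusted p = 0.283) and Mov10l1 (-0.31 ± 0.22, adjusted p = 0.327). Mov10l1 averaged 144 ± 2.77 in KO+Rescue mESCs. Syce1 and Mov10l1 were not called against KO either (adjusted p = 0.236 and 0.394). Hormad2 was at 1.38 in KO cells and 0.64 in KO+Rescue (SE 0.20, adjusted p = 0.0418 for the latter), and its difference between the lines was -0.74 ± 0.20 (adjusted p = 0.0937). Dazl, Tex15 and Tex101 were called lower in KO+Rescue (log2 -0.52, -0.79 and -1.77, adjusted p = 0.0486, 0.00951 and 0.0276), where KO stood at -0.31, -0.48 and -1.12 without passing.

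At day 2, 4 germline genes were higher in KO+Rescue than KO and 1 was lower, where 1.83% of all tested genes were called, 0.502% higher and 1.33% lower. Ddx4 rose 1.99-fold over KO (log2 0.99 ± 0.12, adjusted p = 0.00164) and was also above WT (1.91-fold, adjusted p = 0.000558), from which KO itself did not differ by the test. Stra8 rose 2.33-fold (log2 1.22 ± 0.23, adjusted p = 0.0192) and stayed 3.80-fold below WT (adjusted p = 0.000262). Meioc rose 1.84-fold (0.88 ± 0.16, adjusted p = 0.018) to a level not called against WT (log2 0.27 ± 0.16, adjusted p = 0.307). Tex11 rose 2.04-fold (1.03 ± 0.22, adjusted p = 0.036). Fkbp6 fell 2.40-fold (-1.26 ± 0.20, adjusted p = 0.00791). In mESCs the same 5 differences between KO+Rescue and KO ran from log2 -0.74 (Fkbp6) to 0.39 (Ddx4) and none passed. Leaving out any of the 4 KO and KO+Rescue day 2 libraries left only 1 of the 5 calls, Ddx4, and the call of Tex11 was also lost without either KO mESC library (adjusted p = 0.0602 and 0.0609).

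Against WT at day 2, 9 of the 36 were lower in KO+Rescue and 2 higher (Ddx4 and Mael), where 11.1% of all tested genes were called, 7.2% lower and 3.9% higher. With equal totals the split of all genes went from 598 higher and 1104 lower to 368 and 1587, while that of the germline genes was 2 and 9 again. Fits of fewer libraries are given next without a count of all genes, and measure no larger or smaller germline effect. The count of 11 was 6 in a fit of these 2 groups alone and without WT day 2 replicate A or KO+Rescue day 2 replicate B, 7 without KO+Rescue day 2 replicate A and 17 without WT day 2 replicate B. Side by side, with the same WT libraries, Tex19.1 lay at log2 -1.71 in KO and -1.68 in KO+Rescue (SE 0.14), Xlr3a at -3.57 and -4.08 (SE 0.36), and Tdrd12 at -0.82 and -1.28 (SE 0.17). Piwil2 lay at -0.71 and -0.52 (SE 0.14) and Tex15 at -0.71 and -0.61 (SE 0.16). All 5 were called in both comparisons. Of the 9 genes lower in KO at day 2, 7 were also called lower in KO+Rescue. Meioc and Rec8 (log2 -0.48 ± 0.20, adjusted p = 0.137) were not. D1Pas1 and Fkbp6 were called lower in KO+Rescue (-0.81 and -0.78, adjusted p = 0.016 and 0.0274), where KO stood at -0.34 and 0.48 without passing. Mael, a factor of the germ granule, had 884 and 1519 in WT, 1559 and 1499 in KO cells and 2212 and 2287 in KO+Rescue at day 2, which was 1.94-fold above WT (log2 0.96 ± 0.22, adjusted p = 0.0151). Sycp3 and Dmc1 also had their highest day 2 levels in both KO+Rescue libraries, but did not pass against WT (adjusted p = 0.118 and 0.142).

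**Figure D4:**
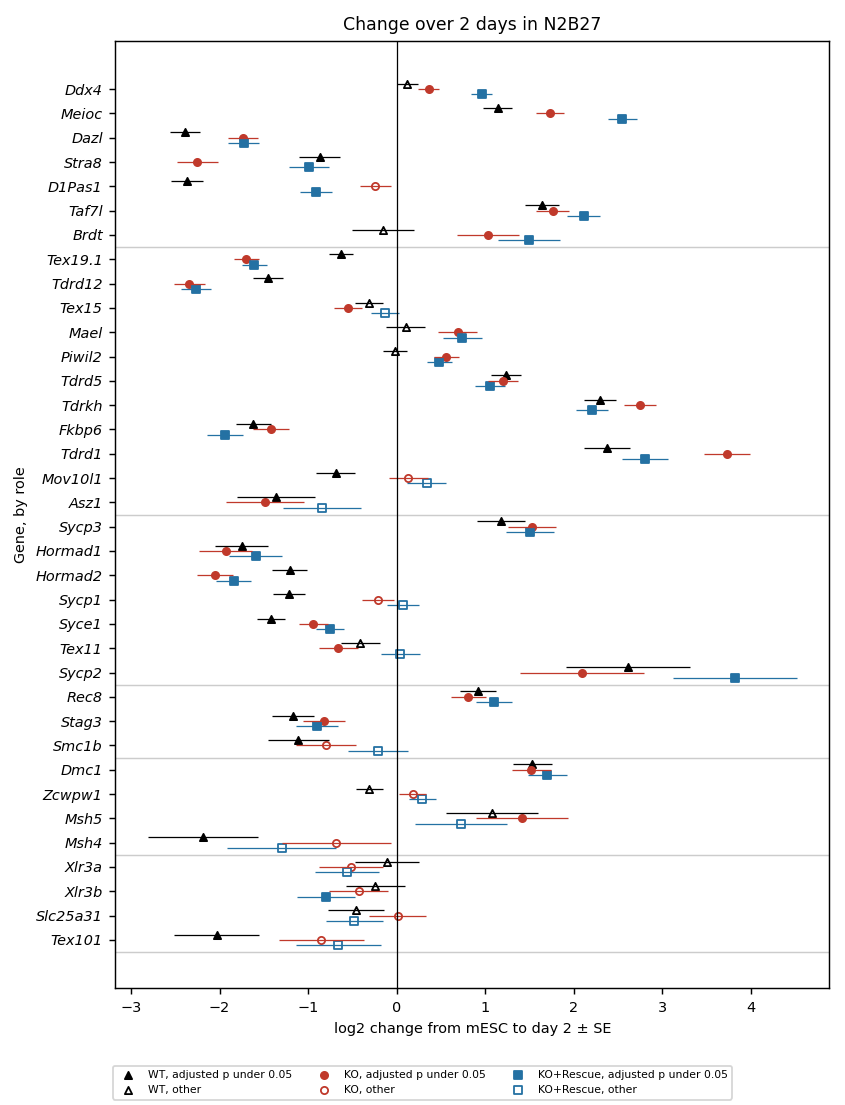
Fitted log2 change from mESCs to day 2 (horizontal axis, with SE) of the 36 tested genes in WT (triangles), KO (circles) and KO+Rescue (squares), with filled marks for adjusted p under 0.05. Tdrd1, Tdrkh and Sycp2 lie far to the right and Dazl, Tdrd12, Hormad1 and Hormad2 to the left in every genotype. D1Pas1 and Sycp1 fall more in WT than in the other genotypes, and D1Pas1 also falls in KO+Rescue.

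Over 48 hours in N2B27 germline genes moved in both directions. In WT 9 of the 36 rose and 16 fell, where 51.9% of all tested genes were called, 26.6% higher and 25.3% lower. In KO 14 rose and 12 fell (60.1% of all called, 31.4% higher and 28.7% lower), and in KO+Rescue 13 rose and 11 fell (58.2% of all called, 29.2% higher and 29.1% lower). Equal library totals moved the median of all genes to between 0.21 and 0.35 in these comparisons and gave 10 and 13, 15 and 9, and 15 and 7 germline genes. The same scaling turned all calls from 4079 higher and 3888 lower to 4965 and 2379 in WT, from 4820 and 4399 to 6239 and 2527 in KO, and from 4472 and 4463 to 6169 and 2494 in KO+Rescue. The genes that rose in all 3 genotypes numbered 9: Meioc, Taf7l, Tdrkh, Tdrd1, Tdrd5, Sycp2, Sycp3, Rec8 and Dmc1. Another 9 fell in all 3: Dazl, Stra8, Tex19.1, Tdrd12, Fkbp6, Syce1, Hormad1, Hormad2 and Stag3. The share of all tested genes that moved the same way in all 3 genotypes was not counted. With 51.9% to 60.1% of all tested genes called per genotype, neither list can be read as a germline trait. Tdrd1 rose 5.19-fold in WT (log2 2.38 ± 0.26, adjusted p = 7.98e-06) and 13.3-fold in KO (3.73 ± 0.26, adjusted p = 1.05e-07). Tdrkh rose 4.92-fold in WT and 6.73-fold in KO (adjusted p = 3.29e-07 and 4.47e-08). Dazl fell from 1215 and 1217 to 216 and 249 in WT (5.23-fold, log2 -2.39 ± 0.17, adjusted p = 1.62e-07) and 3.33-fold in KO.

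D1Pas1 fell 5.17-fold in WT (log2 -2.37 ± 0.18, adjusted p = 3.8e-07) but was not called in KO (-0.24 ± 0.18, adjusted p = 0.276), where it was already low in mESCs. It also fell 1.88-fold in KO+Rescue (-0.91 ± 0.18, adjusted p = 0.000947), from 344 ± 41.1 in mESCs, beside 298 ± 23.4 in KO mESCs. Sycp1 fell 2.33-fold in WT (-1.22 ± 0.18, adjusted p = 0.000101). It was not called in KO (-0.21 ± 0.18, adjusted p = 0.339) or KO+Rescue (0.07 ± 0.18, adjusted p = 0.75), although its interaction did not pass with limma. Stra8 fell 1.83-fold in WT, 4.77-fold in KO cells and 1.98-fold in KO+Rescue. Piwil2 did not pass in WT (log2 -0.02 ± 0.14, adjusted p = 0.937) and rose in KO and KO+Rescue (0.56 and 0.48, adjusted p = 0.00491 and 0.0123), its interaction not passing (adjusted p = 0.24). Zcwpw1 and Slc25a31 were the 2 genes called in none of the 10 comparisons.

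A wider list of 62 other germline and meiosis genes, of which 61 symbols were in the table and 48 were tested, was read beside them. In KO mESCs 6 fell and 1 rose, or 14.6% called where 9.48% of all tested genes were, with a median of -0.38. At day 2 8 fell and none rose, or 16.7% against 5.21%, with a median of -0.27. The one that rose, Rec114, which helps to place meiotic breaks, went from 898 ± 180 to 2709 ± 193 (SD, n = 2; 3.04-fold, log2 1.61 ± 0.23, adjusted p = 0.00106). Sohlh2, a transcription factor of early germ cells, was lower in KO at both stages (776 ± 20.2 against 397 ± 3.44 in mESCs, adjusted p = 0.00432, and 546 ± 65.4 against 270 ± 13 at day 2, adjusted p = 0.00365) and rose 1.66-fold in KO+Rescue over KO at day 2 (adjusted p = 0.0453). The X-linked Xlr4a fell 10.2-fold and 14.6-fold (adjusted p = 0.024 and 0.0153). The sperm protamine genes Prm1 and Prm2 and the transition protein gene Tnp1 were at 0 in every library.

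Regulators of germline genes were also examined. Of 17 repressor genes, Dnmt3a and Dnmt3l fell in KO mESCs, Dnmt3l fell at day 2 and none rose. That is 11.8% and 5.88% called, near the 9.48% and 5.21% of all tested genes. Dnmt3l, the cofactor of the DNA methyltransferases, was 1.43-fold lower in mESCs and 2.13-fold lower at day 2 (adjusted p = 0.0431 and 0.000692). In KO+Rescue against WT, Dnmt3a, Dnmt3l and Ehmt1 were called lower in mESCs. At day 2 Dnmt3l was called lower and Rnf2 higher in that comparison. The genes of the Polycomb complex named above, E2f6, Mga, Max and Pcgf6, differed by log2 -0.23 to 0.13 between KO and WT (adjusted p from 0.189 to 0.995). Of 5 genes for TET enzymes and Dppa activators, Tet1 and Tet2 rose in KO at day 2 (1.76-fold each, adjusted p = 0.0299 and 0.0191) and none was called in mESCs. Tet2 was also called higher in KO+Rescue than WT at day 2. Of 9 fibroblast and feeder markers 7 were tested, and Acta2 and Tagln rose in KO at both stages, Vim rose at day 2 and Thy1 fell in mESCs. Their summed level was 14090 and 12340 in WT and 17287 and 16489 in KO mESCs, and 5048 and 4838 against 10237 and 9209 at day 2. Their part in the germline values was not tested.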

How the data were processed

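RNA was sequenced from 12 libraries, 2 for each of 3 genotypes (WT, PROSER1 KO, KO+Rescue) at 2 stages, called biological replicates in the labels. How their cultures were separated is not said, so p-values reflect only the spread of these libraries, which may be technical. The deposited values are a signal, counts per gene that the authors normalised with the size factors of DESeq2 after trimming with Trimmomatic, alignment with STAR to mm10, removal of Y chromosome reads and counting of read pairs with featureCounts on RefSeq genes. Versions, the strand setting and the treatment of reads with several matches are not given in the sources used here. Dividing each library by its smallest non-zero value gave whole numbers (tolerance 0.001; 100% of values), and with them whole reads and the library totals.

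The column names give WT and the stage, and name 8 columns by a line code, with or without R. These were taken to be KO+Rescue (with R) and KO, which no label states. The letters A and B could not be tied to replicate numbers.

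Genes with a mean of at least 10 were tested with limma 3.58.1 (R 4.3.3) with an intensity trend, on the log2 of the normalised count plus 1, in a fit of 6 group means to all 12 libraries and 10 contrasts. A fold is the antilog of the fitted change on that scale and understates changes of low genes. Tests were two-sided, adjusted after Benjamini and Hochberg over the 15341 genes of a contrast, and called under 0.05. The procedure was tested on simulated data. Alternatives were edgeR 4.0.16 and DESeq2 1.42.0 on the whole reads, a pseudocount of 0.5, no filter, equal library totals, a fit of the compared groups alone, a replicate block and leaving out each library.

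The genes, the other lists and the tests were chosen with earlier results of these data known. By rule, every member is accounted for by role. Values per library are given for up to 6 members a role called in KO against WT or KO+Rescue against KO, and for the member with the highest mean in each role. Upstream windows of 250 bases came from RefSeq (GRCm38.p6) and were found for 35 members. Positions came from the same annotation, and transcript lengths from the longest GENCODE transcript of a gene, annotated on a later assembly.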

Additional observations from a re-analysis of the deposited data

Results flagged for a closer look

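The change in KO differed between the stages, by the test of the interaction, for 2 of the 36 tested germline genes. For D1Pas1 the log2 change in KO at day 2 minus that in mESCs was 2.13 ± 0.26 (SE, limma, adjusted p = 0.00186). Both KO libraries lay below both WT libraries at each stage, at 281 and 314 against 1800 and 1520 normalised counts in mESCs and at 227 and 279 against 364 and 280 at day 2. At day 2 the nearest libraries were thus at 279 and 280, and the KO difference did not pass (log2 -0.34 ± 0.18, adjusted p = 0.354). For Tex19.1 the difference was -1.07 ± 0.19 (adjusted p = 0.0175), with both KO libraries below both WT libraries at each stage and the wider gap at day 2.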

How the results depend on the processing

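Under every alternative the called genes below kept the direction of their change. In KO against WT 8 of 15 mESC calls (Stra8, Meioc, D1Pas1, Piwil2, Sycp1, Hormad2, Xlr3a and Xlr3b) and 4 of 9 day 2 calls (Stra8, Tex19.1, Xlr3a and Xlr3b) passed under every alternative, as did 1 of 5 in KO+Rescue against KO at day 2 (Ddx4), 0 of 2 in mESCs and 1 of 2 interactions (D1Pas1). With only the groups compared in the fit the counts were 8 in KO against WT mESCs and 5 at day 2, 0 and 12 in KO+Rescue against KO, 9 and 6 in KO+Rescue against WT, and 1 for the interaction. For KO+Rescue against KO in mESCs no filter gave 0, edgeR 0 and DESeq2 4. All genes called there went from 232 to 159 with edgeR and to 379 with DESeq2. For the interaction equal library totals gave 1 and DESeq2 6, while all genes called went from 173 to 99 and to 471. The number of all genes called thus moved with the setting, so these counts and those below measure no larger or smaller germline effect. The cause was not tested.

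Leaving out 1 library gave 10 to 16 calls in KO against WT mESCs and 4 to 9 at day 2 (4 without KO day 2 replicate A or B). In KO+Rescue against KO it gave 0 to 4 in mESCs (0 without any KO or KO+Rescue library of either stage, 4 without either WT day 2 library) and 1 to 6 at day 2 (1 without any of its 4 libraries). In KO+Rescue against WT it gave 8 to 17 in mESCs (8 without KO+Rescue mESC replicate B, 9 without WT mESC replicate A) and 6 to 17 at day 2 (6 without WT day 2 replicate A or KO+Rescue day 2 replicate B, 7 without KO+Rescue day 2 replicate A, 17 without WT day 2 replicate B). Day 2 against mESCs gave 21 to 26 in WT, 17 to 27 in KO (17 without KO day 2 replicate A) and 21 to 25 in KO+Rescue. The interaction gave 1 to 4 (1 without WT mESC replicate A or any KO library, 4 without WT mESC replicate B or WT day 2 replicate A).

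The letters A and B did not meet the condition for pairing over all groups, a correlation of the A minus B differences over 0.1 in each of the 15 pairs of groups. The 6 pairs among the mESC groups and WT day 2 did exceed it (0.125 to 0.413), and the 9 pairs with KO or KO+Rescue day 2 did not (-0.0481 to 0.063), so mESC libraries of a letter deviated together, as a hint from the data and not from the design. A replicate block on the letter gave 17 calls in KO against WT mESCs and 12 at day 2, 6 and 10 in KO+Rescue against KO, 18 and 15 in KO+Rescue against WT, and 6 for the interaction, and raised the share of all genes called in KO against WT mESCs from 9.48% to 23.8%. The other counts with the block are given without that share, so they are not to be read as a larger germline effect. With 2 libraries a group, small differences and genes of few reads such as Msh4, Msh5 and Sycp2 had wide errors.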
